A study of Mus musculus with 12 samples.

Results

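N4-acetylcytidine (ac4C) peaks assigned to 5′ untranslated regions (5′ UTRs) in ID8 cells, a line of mouse ovarian cancer cells derived from ovarian surface epithelium, made up 434 of the 19049 peaks in the authors' deposited table (2.28%). The members were all rows whose class was the 5′ UTR, and no measured value entered this choice. They belonged to 410 gene IDs (409 symbols) on 20 chromosomes, and 431 of them were in protein-coding genes. Of the genes, 113 carried no peak of another class and 297 carried at least 1. The class had been assigned at a single point per peak: for 225 members the middle of the genomic span, and for 209 the middle of the longest exonic block. A member of several blocks can therefore reach past the untranslated region into coding sequence.

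The cells were either untreated controls or were treated with cisplatin, a platinum drug that crosslinks DNA, and their RNA went in part straight into libraries (input) and in part through immunoprecipitation with an anti-ac4C antibody (IP). This gave 4 groups of 3 samples, control input, control IP, cisplatin input and cisplatin IP; dose and time are not given in the labels. All 12 samples were of the same cell line with no stated genetic change, and the labels do not say whether replicates were separate cultures, so p-values measure the spread between these samples, which may be technical. Peaks come with values for the comparison as a whole and none for single libraries, whereas the 6 input libraries have a level per gene in FPKM, fragments scaled by gene length and library size, from 20134902 to 29687163 recovered fragments each.

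The modification ac4C is an acetyl group on cytidine, set by the acetyltransferase NAT10. It was long known from ribosomal and transfer RNA and has been mapped in messenger RNA by antibody enrichment. In messenger RNA it has been linked to translation efficiency, and within the 5′ UTR, the stretch that the small ribosomal subunit scans before it reaches the start codon, to the choice of the site where translation begins. The 5′ UTR is also where upstream open reading frames, iron-responsive elements and terminal pyrimidine tracts act on translation.

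The first bases of a transcript bear on these elements, so the starts that peaks covered are shown here for members described later. RefSeq starts on GRCm38.p6, the assembly behind mm10, were matched for 349 of the 434 peaks, and 115 peaks overlapped the first 50 bases by at least 12. Letters are given 5′ to 3′ on the strand of the gene. Capitals mark a C followed without a break by C or T from the first base on, the form of a terminal pyrimidine tract, in the starts of Eif2s3x, a subunit of the initiation factor that brings the initiator tRNA, and Gtf2f1, a general transcription factor. The peak of Eif2s3x covers the bases shown but begins upstream of them, at chrX:94212773, so the tract is not at the 5′ end of that peak. That of Gtf2f1 begins right after the bases shown.
Eif2s3x, chrX:94212622-94212651, minus strand: CTTTTCTCTCCgagcaagatggctgggggt
Gtf2f1, chr17:57011259-57011288, minus strand: CTCTTTTTCTCgtcttccagcattctccga

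Another set holds a C at intervals of 3 bases over 4 repeats (CNNCNNCNNCNN), an arrangement that has been discussed for ac4C; capitals mark the 4 cytosines. It is shown for the helicase Dhx9, the tubulins Tuba1b and Tubb5, the elongation factor Supt6 and the superoxide dismutase Sod1. Their peaks cover the whole first 50 bases and had a positive difference, and all but that of Dhx9 begin upstream of these bases. It is also shown for thioredoxin (Txn1), whose peak covers 21 of the first 50 bases, the 4 cytosines included, and had a negative difference.
Dhx9, chr1:153487622-153487651, minus strand: gccatttcgCcgCtgCttCcatgcgggtga
Tuba1b, chr15:98934343-98934372, minus strand: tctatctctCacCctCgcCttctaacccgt
Tubb5, chr17:35838272-35838301, minus strand: gcCccCggCcgCgcgaacgcgagccccgcc
Supt6, chr11:78245674-78245703, minus strand: gttaacgCagCagCggCgacggtggtggtg
Sod1, chr16:90220765-90220794, plus strand: ggtcctttcCtgCggCgcCttccgtccgtc
Txn1, chr4:57956362-57956391, minus strand: gggaggcgggaagcgCgtCccCgcCgcgcg

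Neither arrangement was found in the first 50 bases of the genes below, which include the member with the highest enrichment (Ier5), members with a positive difference (Jun, Sf3a3, Rps25) and members with a negative one (Ift74, Mgst1). The peaks cover all of these bases, and those of Sf3a3, Rps25 and Mgst1 begin upstream of them, at chr4:124714776, chr9:44407647 and chr6:138140523.
Ier5, chr1:155099607-155099636, minus strand: gctcagtttagagtccggctcagaacggtt
Jun, chr4:95052193-95052222, minus strand: gttgagctcaggctggataaggactcagag
Sf3a3, chr4:124714861-124714890, plus strand: gtggtccgccttgaaacgccgtggccaagg
Rps25, chr9:44407714-44407743, plus strand: agcgaggctgctgtggtctacacgactctc
Ift74, chr4:94614491-94614520, plus strand: taggatacgcggcgtcgctgcggggtgggg
Mgst1, chr6:138140527-138140556, plus strand: agcgcgggtcctgttggtgaaaagtcccag

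Over the 113 starts that the peaks overlapped, 26 held the repeat of C at intervals of 3 bases (23.0%), on the strand of the gene only, 11 of 35 starts with a called positive and 2 of 8 with a called negative difference. The share was 28.6% over 10359 starts of protein-coding genes tested in input and 21.1% over all 32851 starts in the RefSeq table. A start with C and at least 4 further pyrimidines was present in 2 of the 113 (1.77%), against 2.39% of the tested protein-coding genes and 2.51% of all starts. The median GC content of the first 50 bases was 62% over the overlapped starts and 66% over the tested protein-coding genes. These matches describe the letters in this window and are no evidence of acetylated sites.

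Many peaks of the 5′ UTR class lay close to the gene start, which the class in part fixes, since a 5′ UTR begins at a transcript start. The 5′ end of the peak was 245.5 bases downstream of the RefSeq gene start (median over 428 members with a matched gene), and 215 of the 428 (50.2%) began within 300 bases of it on either side. Among all peaks the share was 4.74%, among exon-class peaks 11.3%, among coding-sequence peaks 3.40% and among 3′ UTR peaks 0.11%. At the exact first base of the gene, 19 members began, and 53 members covered that base. A further 130 members began over 1 kb downstream, as in Gata4 and Slc7a11, and 43 began upstream. These distances are from 1 start per gene; a gene can have others, as Xrcc6, where the promoter table holds a start that the second of its 2 peaks overlaps.

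**Figure D1:**
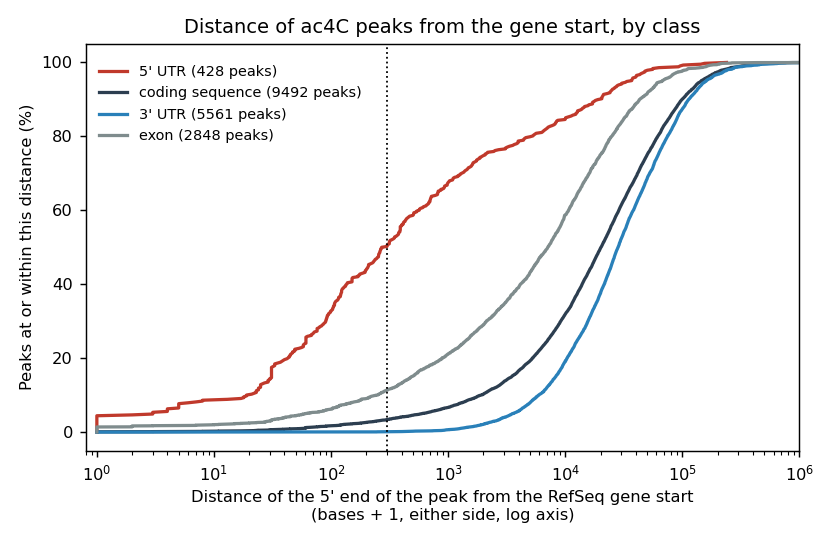
Cumulative share of peaks (vertical axis, percent) by the distance of their 5′ end from the RefSeq gene start (horizontal axis, bases plus 1 on either side, log axis), 1 line per class, with a dotted line at 300 bases. At that distance the 5′ UTR class stood at 50.2% and the exon, coding and 3′ UTR classes at 11.3%, 3.40% and 0.11%.

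The exonic width of members was 180 bases at the median, from 119 to 930, and 216 of them consisted of 1 block, 161 of 2 and 57 of 3 or more. Members with several blocks cross splice junctions, as the peak of Actn1, an actin crosslinker, over 5 blocks and that of Eif2s3x over 6. Fold enrichment (IP relative to input, as the authors computed it) had a median of 8.23, between 1.11 for the co-chaperone gene Bag1 and 64.6 for the immediate early gene Ier5. The same median was 7.05 over all peaks, 5.54 over coding-sequence peaks and 8.23 over 3′ UTR peaks. The order of the classes differed with the input level of the gene. Over 4 ranges of rising level the medians were 8.23, 9.40, 8.62 and 5.71 for members and 9.40, 7.03, 5.17 and 3.19 for coding-sequence peaks. For 3′ UTR peaks they were 9.40, 8.82, 7.64 and 5.71, closer to the members in the upper 3 ranges. Fold values repeat exactly between members: 8.23 was shared by 30 members, 9.40 by 25, 10.6 by 23 and 11.8 by 22.

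Between the treatments, most differences were positive, as they were for peaks in general. All differences, folds and adjusted p-values of peaks are the authors' values, with no replicate spread of their own; the header does not state the direction, and the table is named cisplatin before control, so a positive value would mean more enrichment after cisplatin if it runs in that order. Of the 434 members, 116 had a positive difference at the authors' adjusted p under 0.05 (26.7%, against 36.5% of all 19049 peaks) and 31 a negative one (7.14%, against 9.62%). Together 147 were called (33.9%, against 46.2% of all peaks, 56.0% of coding-sequence peaks and 36.2% of 3′ UTR peaks). The median log2 difference was 1.22 over members and 1.58 over all peaks, and 74.4% and 75.8% of the values were above 0. Called positive members had log2 differences from 0.297 to 7.12 with a median of 3.60, and called negative members had sizes from 0.167 to 6.17 with a median difference of -1.82.

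**Figure D2:**
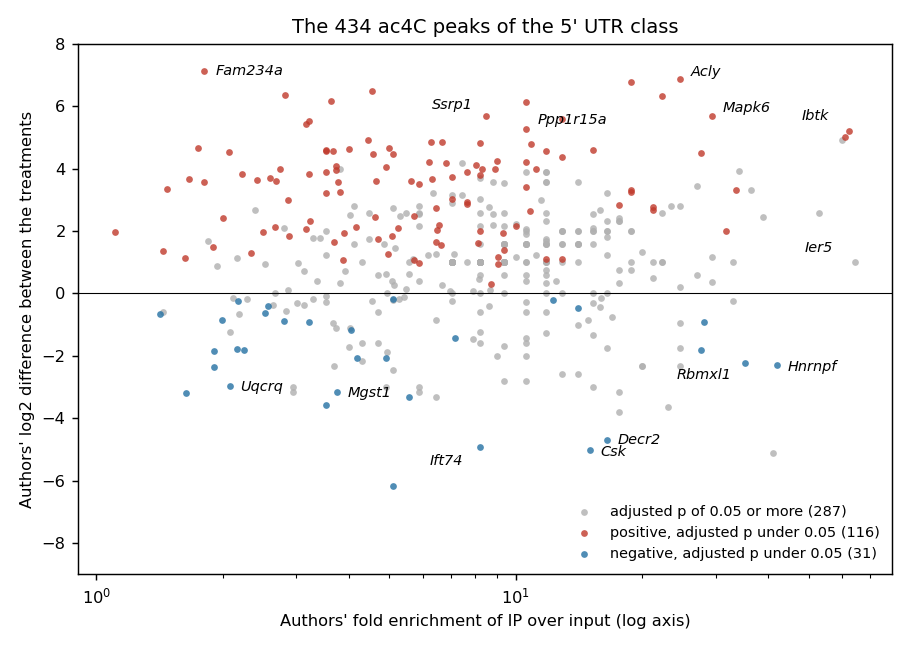
The authors' log2 difference between the treatments (vertical axis) against the authors' fold enrichment (horizontal axis, log axis), 1 point per peak of the 5′ UTR class. The 116 red points are called positive, the 31 blue points called negative and the 287 grey points neither; called positive points run up to 7.12 (Fam234a), and Ier5, farthest right at 64.6, was not called.

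The level of the gene's RNA moved with these calls. When the members were divided into 4 groups of nearly equal size by the mean input FPKM of their gene, 15.2% were called in the lowest group (0.01 to 4.71 FPKM), 29.5% in the next (4.72 to 11.48), 32.7% in the following one (11.57 to 30.17) and 60.0% in the highest (30.30 to 1049.71). Coding-sequence peaks of genes within the same limits were called in 24.7%, 46.3%, 65.0% and 81.1%, above the 5′ UTR members in every range. For 3′ UTR peaks the shares were 17.0%, 27.8%, 43.5% and 61.9%, of which only the third range differed from the 5′ UTR share by over 2 percentage points. The called share was also higher in members of more blocks, at 24.5% with 1 block, 38.5% with 2 and 56.1% with 3 or more. The median input levels of their genes rose in the same order, at 8.88, 11.4 and 32.6 FPKM. A value of exactly 0, 1, 1.58 or 2 was the log2 difference of 103 members, which were in genes of a lower median level (5.86 FPKM against 13.8 FPKM), and 2 of the 103 were called against 145 of the other 331 (43.8%). In this order the values made up 1.84%, 12.7%, 5.76% and 3.46% of members and 1.20%, 7.10%, 4.63% and 2.35% of all peaks. Few were called in the whole table either, at 0%, 0.37%, 1.02% and 4.25% of all peaks with these values. The part of RNA level in the calls was not tested.

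**Figure D3:**
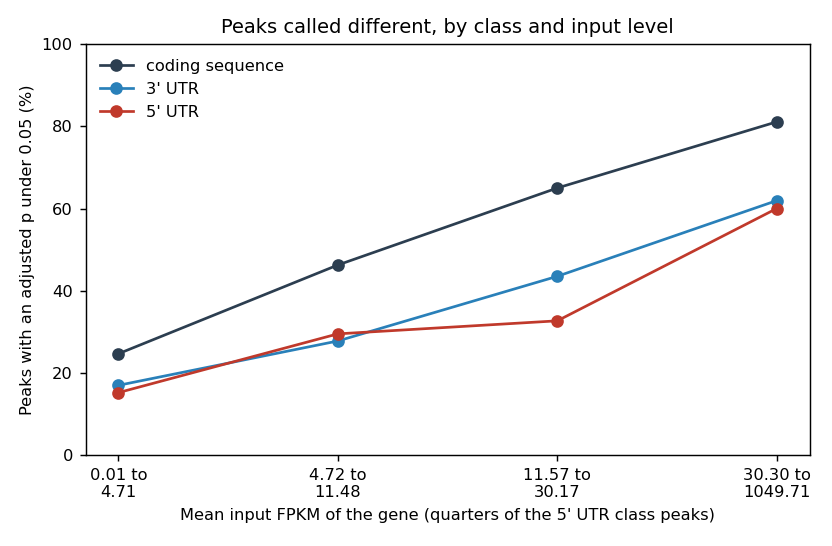
Share of peaks with the authors' adjusted p under 0.05 (vertical axis, percent) in 4 ranges of the gene's mean input level (horizontal axis, FPKM), for the 5′ UTR, coding-sequence and 3′ UTR classes. The 5′ UTR line runs from 15.2% to 60.0% and the coding-sequence line from 24.7% to 81.1%.

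Near the gene start, 59 members were called positive and 20 negative of the 215 within 300 bases (36.7% called), and among the 201 that began farther downstream, 53 were positive and 9 negative (30.8%). The median input level of the genes was 14.7 FPKM for the former and 9.65 FPKM for the latter. For the largest differences, folds and input changes, single genes are given where the level reached 5 FPKM in the higher group, without predicted genes. Genes given from lists had no such limit, and some, as Trmt61a and Gadd45g, were below it. Under the limit of 5 FPKM the 8 largest called positive differences belonged to genes of varied roles. Fam234a, a membrane protein gene, had a difference of 7.12 at chr17:26220491-26244043 (adjusted p = 1e-253) with a fold enrichment of only 1.81. Acly, whose enzyme makes cytosolic acetyl-CoA, the acetyl donor of both lipid synthesis and RNA acetylation, had a difference of 6.87 at chr11:100523527-100527940 (adjusted p = 2e-14) and a fold enrichment of 24.7. Cggbp1, a binder of CGG repeats, stood at 6.48, the tyrosine kinase gene Abl1 at 6.32, Tbc1d8b at 6.17, the atypical MAP kinase gene Mapk6 at 5.70, the histone chaperone gene Ssrp1 at 5.68 and Hsdl2 at 5.58.

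Under the same limit, which leaves out the predicted gene Gm10644 at -6.17, the largest called negative differences were those of Csk, a kinase that restrains Src (-5.03, chr9:57630927-57645020, adjusted p = 3.8e-09), Ift74, a part of the transport machinery of cilia (-4.91), and Decr2, a peroxisomal reductase (-4.70). They were followed by the microsomal glutathione transferase gene Mgst1 at -3.16, the respiratory complex III gene Uqcrq at -2.97, the splicing regulator gene Hnrnpf at -2.30, Rbmxl1 at -2.22 and Plekhb2 at -2.08. Hnrnpf and Rbmxl1 combined a negative difference with folds of 41.9 and 35.3, among the 8 highest of members in genes of at least 5 FPKM. The other 6 of those were Ier5 at 64.6, Ibtk at 62.3, D17H6S53E at 61.1, Ivns1abp at 59.9, Ppp1r10 at 52.9 and Dmtf1 at 38.8, of which Ibtk and D17H6S53E were called positive and the others not called.

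The input RNA of genes with a 5′ UTR peak changed widely after cisplatin, as did input RNA in general. Of the 410 genes, 380 passed the filter of 1 FPKM in at least 3 of the 6 input libraries, 16 were below it and 14 had no FPKM row. By limma with Benjamini-Hochberg adjustment over all 11449 genes tested, 182 of the 380 rose (47.9%, against 40.1% of all genes) and 140 fell (36.8%, against 41.1%). Of the 7515 tested genes with a peak of any class, 42.3% rose and 37.8% fell. Either direction was called for 322 of the 380, against 81.3% of all genes, and in 321 of the 322 (99.7%) the levels of the groups did not overlap, against 99.3% of all called genes; the exception was the glycolysis gene Pfkm. The median log2 change was 0.11 over the 380 genes, 0.043 over tested genes with any peak and -0.0028 over all genes tested. When the libraries were rescaled to a common sum of FPKM, 164 of 381 member genes rose and 163 fell. Of all 11458 genes tested under that scaling, 4064 rose and 5316 fell. Fewer cells with a transcript and less of it per cell cannot be told apart in such bulk RNA.

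Jun, a subunit of the AP-1 transcription factor, was at 53.2, 56.9 and 54.0 FPKM in control and at 239, 239 and 255 FPKM in cisplatin libraries. The groups did not overlap, and the mean was 4.47 times as high after cisplatin (log2 change on FPKM + 1 of 2.14 ± 0.041 (SE), adjusted p = 6.31e-08, limma, n = 3 per group). Its peak began at the first base of the gene (chr4:95051954-95052222) and was called positive (difference 2.21, fold enrichment 6.57). Ier5, another immediate early gene, was at 9.89, 12 and 13.3 FPKM in control and at 41.6, 39.5 and 64.5 FPKM in cisplatin libraries. The third cisplatin library was the highest, and the groups did not overlap (log2 change 1.93 ± 0.19, adjusted p = 4.64e-05). Its peak, the most enriched of the class, lay at the first base of the gene (chr1:155099398-155099636) and had an uncalled difference of 0.997. The phosphatase genes Dusp4 and Dusp6, which switch off MAP kinases, rose 1.72-fold and 1.66-fold and had positive differences of 3.41 and 1.49. Of the 48 AP-1 and immediate early genes listed, 5 had 5′ UTR peaks, 3 of them called positive and none negative (36.5% and 9.62% of all peaks). Of 40 tested in input 29 rose and 7 fell (40.1% and 41.1% of all genes tested).

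Further input rises in genes that reached 5 FPKM came with uncalled peaks. The hyaluronan receptor gene Cd44 rose 3.42-fold, from 8.01 to 8.30 FPKM over the control libraries to 26.9 to 29.0 FPKM over the cisplatin libraries, with an uncalled peak (-0.26, fold 32.9) that spans chr2:102865394-102901545. Gtse1, a regulator of p53 in the cell cycle, rose 3.03-fold, and Rpp25l, Caskin2 and Lzic rose 4.77-fold, 3.94-fold and 3.69-fold. None of these 5 genes had a called 5′ UTR peak, where 33.9% of all members and 46.2% of all peaks were called.

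Among the falls, Diaph2, an actin-nucleating formin, was at 5.68, 5.51 and 5.15 FPKM in control and at 0.887, 0.618 and 1.13 FPKM in cisplatin libraries. The groups did not overlap, and the mean was 6.20 times lower (log2 change on FPKM + 1 of -1.79 ± 0.10, adjusted p = 3.03e-06), with an uncalled peak at 0.0995. The zinc finger gene Zfp27 was 4.91 times lower and the ribonuclease gene Rnase4 3.54 times. Gata4, a transcription factor of mesoderm and gonad, was at 14.2, 15.1 and 14.4 FPKM in control and at 5.09, 4.50 and 4.53 FPKM in cisplatin libraries, 3.10 times lower with no overlap. Its 2 peaks, over 26 kb downstream of the RefSeq start, had uncalled differences of 1.00 and -1.89. Fbxo6, a subunit of a ubiquitin ligase, and Cdkn2c, an inhibitor of the kinases that start the cell cycle, were 2.59 and 2.64 times lower, also with uncalled peaks. Of these genes, Rnase4 alone had a called peak (4.81, adjusted p = 0.0155), where 33.9% of all members were called. That peak shares 75 bases with one of Ang, a ribonuclease gene with the same 5′ exons, whose difference was 1.00.

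**Figure D4:**
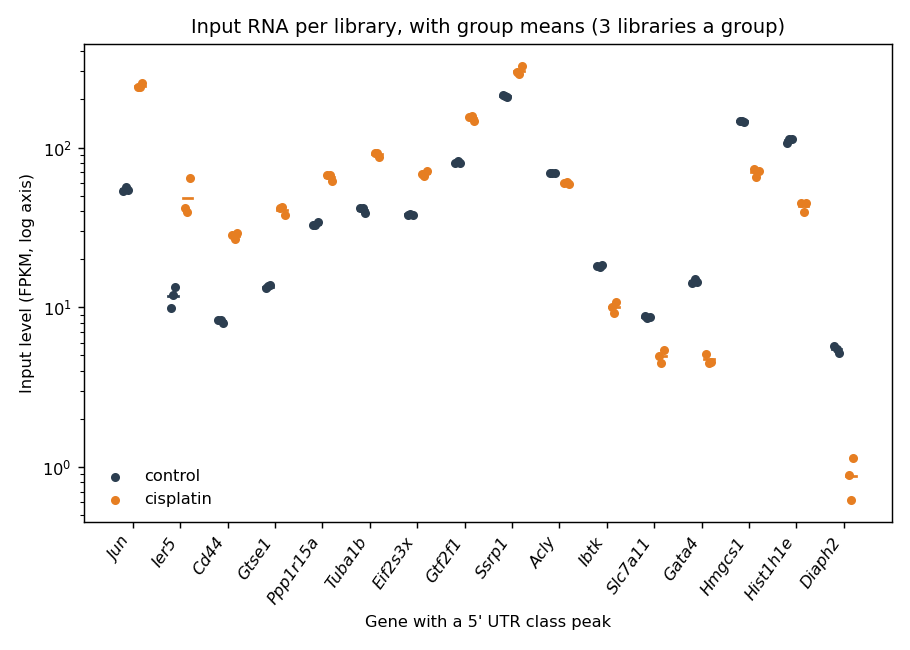
Input level of 16 genes with a 5′ UTR peak in each library (vertical axis, FPKM, log axis), with control libraries in dark blue and cisplatin libraries in orange and a bar at each mean of 3. Jun, at 53.2 to 56.9 FPKM in control and 239 to 255 FPKM in cisplatin libraries, is at the left, and Diaph2, at 0.618 to 1.13 FPKM in cisplatin libraries, at the right.

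Translation factors held 5′ UTR peaks of both signs. Of 47 initiation factor genes, 6 had such a peak, 3 called positive and 2 negative (36.5% and 9.62% of all peaks). Eif2s3x was at 38.0, 38.3 and 38.0 FPKM in control and at 68.5, 66.6 and 71.6 FPKM in cisplatin libraries, with no overlap and a 1.81-fold higher mean (log2 change 0.84 ± 0.035, adjusted p = 7.18e-07). Its peak, which begins upstream of the pyrimidine-rich start printed above and covers it, had a difference of 4.00 (adjusted p = 2.51e-18). Eif4b, which helps the helicase that unwinds the 5′ UTR, rose 1.26-fold in input and had a peak difference of 2.10 (adjusted p = 1.1e-07). Eif1a, which acts in scanning, fell by 0.29 on the log2 scale in input and its peak was called positive at 1.12. Eif1ad rose 1.45-fold and its peak was called negative at -0.399. Of the 47 genes tested, 31 rose and 9 fell (40.1% and 41.1% of all genes tested).

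Of 90 listed ribosomal protein and elongation factor genes, 74 had a peak of any class and 3 had one of the 5′ UTR class, Rpl32, Rplp1 and Rps25. Of the 137 peaks in these genes 4 were of the 5′ UTR class, where the class made up 2.28% of all peaks. In input, 64 of 88 tested rose and 6 fell (40.1% and 41.1% of all genes tested). Rpl32 carried 2 peaks of opposite sign. The wider one, over 614 bases from chr6:115805592 to chr6:115808136, was called negative at -0.167, and the one at the gene start, chr6:115808194-115808747, was called positive at 2.67 (adjusted p = 0.0398). Its input level rose 1.10-fold (adjusted p = 0.0136), a call lost without control replicate 2 and under 3 other settings, 1 of which turned its sign. Rplp1 was called negative at -0.836 and Rps25 positive at 1.16, and the input levels of both overlapped between the groups, from 314 to 345 FPKM in control against 319 to 358 FPKM for Rplp1 and from 80.5 to 81.0 FPKM against 80.2 to 90.3 FPKM for Rps25. Neither change was called, but under quantile normalization Rplp1 was called as a fall (log2 change -0.21, adjusted p = 0.00724). Of 58 genes of ribosome assembly, of which 52 rose and 2 fell in input (40.1% and 41.1% of all genes tested), 2 had a 5′ UTR peak. Noc2l rose 2.32-fold, from 34.5 to 36.5 FPKM in control to 80.0 to 85.5 FPKM in cisplatin libraries, with a peak called positive at 4.91, and Polr1a, the largest subunit of RNA polymerase I, had an uncalled difference of -2.0.

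Genes controlled through upstream open reading frames or the integrated stress response, which lowers general initiation while favouring such transcripts, had 3 members, and all 3 peaks were called positive, against 36.5% of all peaks. Ppp1r15a (GADD34), which ends the response by bringing a phosphatase to eIF2, was at 32.7, 32.9 and 34.2 FPKM in control and at 67.3, 67.0 and 61.9 FPKM in cisplatin libraries. The groups did not overlap (1.97-fold higher mean, log2 change 0.95 ± 0.042, adjusted p = 8.75e-07), and its peak at chr7:45525579-45525879 had a difference of 5.26 (adjusted p = 0.000331). Ibtk, an inhibitor of Bruton's kinase, had a difference of 5.20 (chr9:85743634-85743844, adjusted p = 0.000871) and a fold of 62.3. Its input level fell, from 17.8 to 18.4 FPKM over the control libraries to 9.14 to 10.8 FPKM over the cisplatin libraries. Slc7a11, the cystine importer, likewise fell in input (control mean 1.77 times the cisplatin mean) with a positive peak difference of 2.64. In the whole list 12 of 33 tested genes rose and 15 fell (40.1% and 41.1% of all genes tested).

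Iron genes are the classic case of 5′ UTR control, since a stem-loop in the ferritin leader binds iron-regulatory proteins. Ftl1, the ferritin light chain, had a peak 2 bases from its start that was called positive by a small difference of 0.297 (adjusted p = 5.89e-05). Its input level overlapped between the groups, at 275, 271 and 265 FPKM in control and 302, 275 and 271 FPKM in cisplatin libraries (adjusted p = 0.254), whereas quantile normalization gave a called fall (log2 change -0.14, adjusted p = 0.0181). The transferrin receptor gene Tfrc, which is regulated through its 3′ UTR, rose 1.42-fold in input and had an uncalled 5′ UTR peak (-1.75), and the hypoxia factor gene Epas1 fell with an uncalled peak (-0.585).

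Of 53 listed genes for ac4C and other RNA modifications, 2 had 5′ UTR peaks, and the writer Nat10 and its partner Thumpd1 were not among them. Adar, the adenosine deaminase that edits double-stranded RNA, had 1 peak called positive at 3.68 (chr3:89735000-89735240) and a neighbour just downstream at 3.46 that was not called. Trmt61a, a subunit of the transfer RNA methyltransferase for m1A, was at 0.109, 0.197 and 0.228 FPKM in control and at 3.15, 3.58 and 3.58 FPKM in cisplatin libraries. This was a mean 19.3 times as high with no overlap, from 29 and 644 fragments in all (adjusted p = 4.7e-07), and its peak was not called (3.32).

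The series concerns TGF-beta signalling and immune suppression. In the TGF-beta list, which comprised ligands, receptors, Smads and targets, 3 of 55 genes had 5′ UTR peaks. The inhibitory Smad gene Smad7 was at 4.26, 4.33 and 4.54 FPKM in control and at 8.86, 8.12 and 8.75 FPKM in cisplatin libraries, with no overlap (log2 change 0.83 ± 0.053, adjusted p = 4.78e-06), and its peak was called positive at 3.74 (adjusted p = 0.0316). Smad6, the other inhibitory Smad, fell, from 3.52, 6.00 and 4.97 FPKM to 2.32, 2.30 and 2.07 FPKM, with an uncalled difference of 4.17. The receptor gene Bmpr2 fell 1.43-fold in input and had an uncalled peak at 0.196. No ligand of the family had a 5′ UTR peak, and none of 60 listed checkpoint, chemokine and immunosuppression genes did. In the latter list 30 genes had 67 peaks of other classes, where the 5′ UTR class made up 2.28% of all peaks.

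Of the 93 peaks in genes of the p53 pathway 2 were of the 5′ UTR class, and of the 152 in genes of DNA repair 3 were, where the class made up 2.28% of all peaks. Of 44 p53 genes tested in input 35 rose and 5 fell (40.1% and 41.1% of all genes tested). The apoptosis effector gene Bak1 rose 1.23-fold with a peak called positive at 0.93, and Gadd45g rose from 1.06 to 1.49 FPKM over the control libraries to 3.02 to 4.32 FPKM over the cisplatin libraries with an uncalled peak at -0.848. Xrcc6 (Ku70), which binds broken DNA ends, had 2 peaks, at 4.17 and 2.33, both called positive. Its input level rose 1.12-fold (adjusted p = 0.0131), a call that was lost without control replicate 3 and under 3 other settings, 1 of which turned its sign. Ercc1, of nucleotide excision repair, had an uncalled peak at 2.32 and fell 1.35-fold, a call lost under quantile normalization.

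Of 82 replication and cell cycle genes 4 had 5′ UTR peaks and none was called, against 33.9% of all members and 46.2% of all peaks. The origin genes Cdc6 and Orc6 rose 1.70-fold and 1.69-fold, with peak differences of 2.53 and 0. Among mitosis genes, the checkpoint kinase gene Bub1b had a negative call at -0.875 (adjusted p = 0.0457) and the kinetochore gene Ndc80 a positive one at 2.00 (adjusted p = 0.0339, fold enrichment 31.7). Bub1b rose by 0.13 on the log2 scale, a call that was lost on rescaling to a common sum and with voom and a sign that turned (-0.044) under quantile normalization, and Ndc80 fell 1.34-fold. The 2 replication-dependent histone genes with a 5′ UTR peak, Hist1h1e and Hist1h2be, share 169 bases of 1 region on chromosome 13 and have the same uncalled difference of 3.91, so they count as 1 signal; another member there, Gm11398, shares 146 bases with each. Hist1h1e was at 107, 113 and 112 FPKM in control and at 45.0, 39.8 and 45.1 FPKM in cisplatin libraries, 2.56 times lower.

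Nuclear RNA-processing and transcription genes supplied several of the called members. Of 69 genes of splicing and RNA binding, 8 had 5′ UTR peaks, 6 called positive and 1, Hnrnpf, negative (36.5% and 9.62% of all peaks). In input 47 of the 69 rose and 10 fell (40.1% and 41.1% of all genes tested). Dhx9, an RNA helicase, was at 23.4, 21.8 and 22.6 FPKM in control and at 31.8, 32.1 and 33.6 FPKM in cisplatin libraries, with no overlap and a 1.44-fold higher mean (adjusted p = 1.38e-05), and its peak difference was 3.98. Ddx39b, of RNA export, rose 1.46-fold with a peak difference of 1.08, and Ewsr1 rose 1.40-fold with 3.21. The splicing factor gene Sf3a3 had a peak difference of 2.93, and its input level was 1.07 times lower (adjusted p = 0.0323), a call that was lost when any of control replicates 1, 2 and 3 or cisplatin replicates 1 and 2 was left out.

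In the transcription list 6 of 66 genes had 5′ UTR peaks, 4 called positive and none negative (36.5% and 9.62% of all peaks). Ssrp1, of the FACT complex that moves nucleosomes aside, was at 214, 209 and 209 FPKM in control and at 295, 287 and 325 FPKM in cisplatin libraries. The groups did not overlap (1.44-fold higher mean, adjusted p = 4.25e-05), and its 4-block peak had an authors' adjusted p of 3.98e-98. Gtf2f1 rose 1.90-fold with a peak difference of 1.97, Supt6 1.47-fold with 1.65, and Polr2k, a small subunit of RNA polymerases, fell 1.93-fold with a peak difference of 3.83.

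Of 65 cytoskeleton and adhesion genes 5 had such peaks, 4 called positive and none negative (36.5% and 9.62% of all peaks). Tuba1b rose from 41.7, 41.6 and 39.2 FPKM to 92.1, 92.7 and 87.2 FPKM (2.22-fold, log2 change 1.13 ± 0.04, adjusted p = 3.84e-07) and its peak stood at 1.95. Tubb5 rose 1.44-fold with 1.12, and the collagen IV gene Col4a2 fell 1.18-fold with 3.71. Actn1 had a peak difference of 1.93 and rose 1.20-fold, but its change was -0.0071 under quantile normalization.

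Of the lipid synthesis genes tested in input, 28 of 35 fell (41.1% of all genes tested), and 3 had a 5′ UTR peak. Acly was at 69.5, 69.5 and 69.2 FPKM in control and at 60.1, 61.0 and 58.8 FPKM in cisplatin libraries, a 1.16-fold fall with no overlap (adjusted p = 0.000289). Hmgcs1, of the mevalonate pathway, fell 2.10-fold with an uncalled peak at -0.115, and the desaturase gene Scd2 fell 1.55-fold with a small called difference of -0.199. Among redox genes 5 had 5′ UTR peaks, 2 called in each direction (36.5% and 9.62% of all peaks). The haem oxygenase gene Hmox1 was called negative at -1.42 (adjusted p = 0.000692) with input levels of 14.8 to 15.3 FPKM in control and 15.4 to 15.7 FPKM in cisplatin libraries, a change that was not called (adjusted p = 0.303) and whose sign turned under 3 other scalings. Thioredoxin (Txn1) was called negative at -0.23 and rose 1.58-fold, whereas Sod1 was called positive at 1.13 and fell 1.28-fold.

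The remaining list members were 1 or 2 per list. The co-chaperone gene Bag1 was called positive at 1.98 despite its fold of 1.11, and the chaperonin gene Cct5 was not called (-0.602). The kinase gene Akt2 was called positive at 4.00 and fell 1.52-fold in input, and the growth factor gene Pdgfb was not called (0.737) and rose 1.64-fold. Uba1, which starts the ubiquitin cascade, was called positive at 2.00, the ubiquitin ligase gene Nedd4 negative at -0.455, and the DNA methyltransferase gene Dnmt1 was not called (-0.248). In all, 72 of the 409 gene symbols were in at least 1 of the 24 lists.

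Peaks of other classes in the same genes numbered 708, of which 434 lay in coding sequence and 257 in 3′ UTRs. Of the coding ones 229 were called positive and 42 negative, where the whole class had 45.5% and 10.4%, and of the 3′ UTR ones 90 and 28, where the whole class had 27.4% and 8.84%. They rest on the same libraries as the 5′ UTR peaks, so the values are set side by side without a test. In Acly the 5′ UTR difference of 6.87 stood beside coding differences of 0.922, 1.73, 2.00 and 3.74, all called positive. In Ssrp1 it was 5.68 beside coding differences of 0.605, 0.89 and 4.18. Some genes, picked as examples after their values were seen, had called differences of opposite sign in peaks of different classes. Rps25 stood at 1.16 in the 5′ UTR class and at -6.41 in the 3′ UTR class. Beside peaks of the coding class, Hmox1 stood at -1.42 beside 3.81, Bub1b at -0.875 beside 4.76 and 6.47, and D17H6S53E at 5.02 beside -3.05. The class is set at a single point, so members of several blocks, as in Hmox1 and Bub1b, can include coding bases. Their untranslated and coding parts were not separated. Decr2 was called negative in both the 5′ UTR and the coding class, at -4.70 and -7.23.

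**Figure D5:**
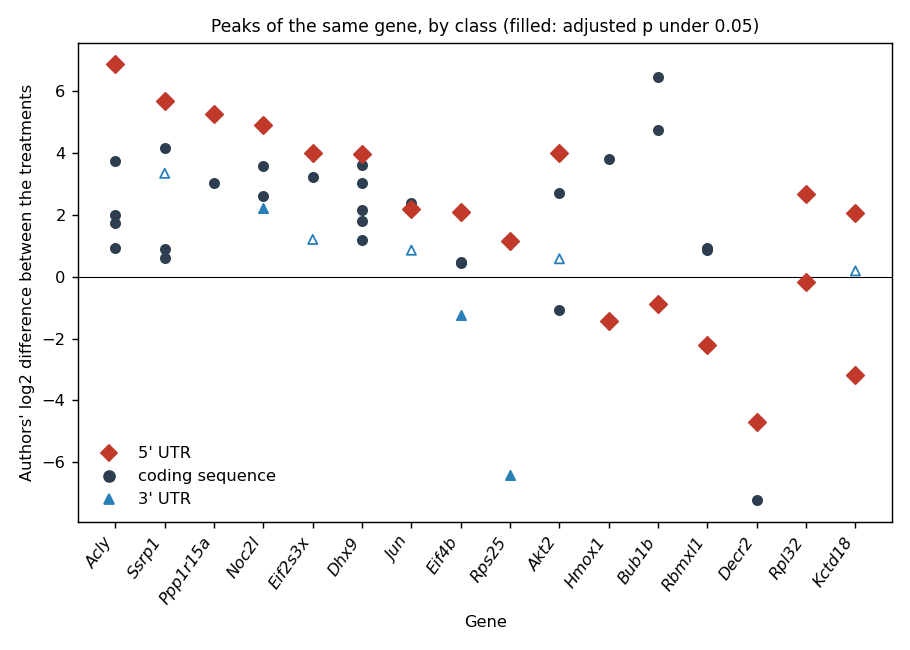
The authors' log2 difference (vertical axis) of every peak of 16 genes (horizontal axis), with red diamonds for the 5′ UTR, dark circles for coding sequence and blue triangles for the 3′ UTR, filled where the adjusted p was under 0.05. Rps25 holds a filled diamond at 1.16 and a filled triangle at -6.41, and Rpl32 and Kctd18 hold 2 diamonds on opposite sides of 0.

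More than 1 peak of the 5′ UTR class was present in 22 genes, 2 in 21 of them and 4 in Tmbim1. In 2 genes, both named after their values were seen, the called peaks had opposite signs: Rpl32, and Kctd18, whose peaks at chr1:58015780-58015960 and chr1:58017877-58018117 stood at -3.19 and 2.08. In Xrcc6 both peaks were positive. Across genes, 19 members shared bases on the same strand with a peak assigned to another gene ID, among them the 2 entries of Dohh, an enzyme of hypusine synthesis, over 113 bases (4.13 and 4.24), and those of Zbtb9 and Ggnbp1 over 178 and 179 bases. Such entries describe the same RNA fragments more than once.

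The input libraries carried some markers of the labelled cell at a high level and others at a low one. Keratins 8, 18 and 19, vimentin and mesothelin were each above 130 FPKM in all 6 libraries, while Krt7 stayed under 0.27 FPKM. Aldh1a2 was at 0.907 to 1.10 FPKM in control libraries and listed at 0 after cisplatin. Lrrn4 (1.24 to 1.46 against 0.0617 to 0.166 FPKM) and Muc16 (1.15 to 1.29 against 0.198 to 0.277 FPKM) were also low. Podxl was at 1.69 to 1.89 FPKM in control and 4.27 to 4.74 FPKM in cisplatin libraries. Of 14 genes of the ovarian surface list tested, 7 rose and 7 fell (40.1% and 41.1% of all genes tested). Among those that fell were Wt1 (44.3 to 46.3 FPKM in control, 11.7 to 12.8 FPKM in cisplatin libraries), Gpm6a (61.9 to 64.9 against 24.6 to 25.8 FPKM) and Bnc1 (11.6 to 12.2 against 1.86 to 2.31 FPKM). The list summed to 2577 to 2616 FPKM in control and 3629 to 4024 FPKM in cisplatin libraries. T- and B-cell markers summed to at most 0.452 FPKM with 7 of 8 at 0 or absent. Macrophage markers summed to 2.25 to 2.60 against 8.14 to 9.97 FPKM. Only 2 of those 8 had an FPKM row, and most of the sum was Cd68 (2.22 to 2.57 against 7.50 to 9.72 FPKM). Endothelial markers summed to 0.723 to 0.931 against 2.75 to 2.96 FPKM. Only 2 of those 7 had a row, and most of the sum was Tek (0.723 to 0.931 against 2.55 to 2.81 FPKM). Fibroblast markers, with a row for 4 of 7, summed to 23.7 to 24.6 against 17.1 to 18.7 FPKM. No marker gene had a 5′ UTR peak, a class of 2.28% of all peaks, and the part of these shifts in the results was not tested.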

How the data were processed

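HISAT2, HOMER, fastp and FastQC and the build mm10 are named in the submitters' processing notes. The peak caller and the test behind the peak differences were not given in the sources used here. Per the labels' protocols, RNA was depleted of ribosomal RNA and libraries were strand-specific. Per the file headers, each deposited peak has a fold enrichment (a ratio of IP over input), a log2 difference between the treatments, log10 scores and a p-value. The authors' log10 adjusted p of the difference was turned into an adjusted p and called under 0.05. Peak starts were converted to counting from 1, and coordinates are outer ends.

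The authors deposited FPKM values for 6 input libraries. These were whole multiples of 1 fragment within 0.0001 for 14851 of 14852 genes, which gave totals for replicates 1, 2 and 3 of 21014851, 21336306 and 20134902 in control libraries, and of 23840770, 29687163 and 21752961 after cisplatin. Log2(FPKM + 1) was fitted with limma 3.58.1 in R 4.3.3 (lmFit, eBayes with trend), with a filter of 1 FPKM in at least 3 libraries and Benjamini-Hochberg adjustment over all genes tested; the script was tested on simulated data. Replicate numbers did not pair the samples (correlations of same-numbered deviations 0.0975, -0.116 and 0.0428). Replicate libraries correlated at 0.989 to 0.996. The squared difference in recovered fragments between replicates, divided by that of random sampling, averaged 2.31 to 3.08 in control. In cisplatin libraries it averaged 7.36 to 14.2.

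The members were set by the class alone, but the class to describe and the lists (24 pathway and 5 marker lists) were chosen with earlier results of these data known. Named genes were the 8 largest positive and negative called differences, the 8 highest folds, the 8 largest input rises and falls (each with at least 5 FPKM in the higher group, without predicted genes), at most 4 from each list, by adjusted p, and the ac4C and TGF-beta core genes. Some of the genes so named are not reported here. Alternatives covered thresholds, filters, pseudocount, scaling, replicate block, left-out libraries and voom on recovered fragments. Starts came from the RefSeq promoter table of GRCm38.p6; 428 peaks matched a RefSeq gene. Python 3.11.15 with pandas 2.3.3 and matplotlib 3.10.9 did the rest.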

Additional observations from a re-analysis of the deposited data

How the results depend on the processing

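Requiring a size of at least 1 on the log2 scale left 20 of the 31 negative peaks; other settings gave 96 to 113 positive and 23 to 28 negative ones. The share of peaks near the gene start was 32.9% within 100 bases and 45.0% over single-block peaks. Leaving out 1 input library gave 168 to 178 genes that rose and 115 to 137 that fell, with fewer genes tested. Over all genes, 3712 to 4384 rose and 3382 to 4766 fell in these fits. With the replicate block 181 rose and 137 fell, where 4592 and 4684 of all 11449 genes tested did. Replicate numbers do not pair the samples. Voom on recovered fragments gave 168 and 160, where 4254 and 5223 of all 11448 genes tested rose and fell. Quantile normalization gave 172 and 154, where 4540 and 4808 of all 11449 genes did. Under quantile normalization the sign of the input change turned for the called genes Actn1 (-0.0071), Bub1b (-0.044), Rpl32 (-0.075) and Xrcc6 (-0.0027). Among genes not called before, it turned for Ftl1 (-0.14) and Rplp1 (-0.21), which then passed as falls, and for Hmox1 (-0.0063), Hnrnpf (-0.044), Rps25 (-0.12) and Uqcrq (-0.14). Rescaling to a common sum turned the uncalled Ftl1 (-0.038), Hmox1 (-0.052), Rplp1 (-0.085), Rps25 (-0.0035) and Uqcrq (-0.015), voom Ftl1 (-0.014), Hmox1 (-0.029) and Rplp1 (-0.064), and leaving out 1 library Rplp1 (range over libraries left out -0.030 to 0.054). The cause was not tested. Over 91 named genes, 1120 of 1172 alternatives kept direction and call, 22 lost the call (8 genes), 10 gained it in the same direction (6 genes) and 20 turned the sign (10 genes). The starts with C at intervals of 3 bases were 23.4% over all member genes and 23.0% where the peak overlapped them. Peak values have no replicates, which limits every statement on a single peak.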
